A study of Mus musculus with 21 samples.

Results

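The regions described here are places in the genome where chromatin accessibility differed between Dlx1/2 knockout (KO) and wild-type (WT) mouse embryos in FTneg cells of the ganglionic eminences. They are all regions of the 2 deposited lists for this fraction, 727 called as more accessible in KO (KO-higher) and 53 called as more accessible in WT (WT-higher). Together they make 780 of the 92305 regions and peaks deposited for the series. The rule that chose them took every region of both lists, so the direction of each call is given by its list. Each region has an area, the authors' measure of the area below its −log10 p track, and the lists begin at an area of 500.

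Accessibility was measured by ATAC-seq, which marks DNA that a transposase can reach, at E12.5 (embryonic day) in basal ganglia of CD1 embryos. The KO group was 3 embryos of the genotype Dlx1/2KO (given as Dlx1/2 -/- in the design text) and the WT group 3 embryos, and FTneg cells are those of the subventricular and mantle zones, which surround the ventricular zone. FTpos cells of the ventricular zone had the same 3 embryo numbers per genotype, and 6 subunits of the NuRD complex were profiled by ChIP-seq at E13.5, in 1 library each. How the Dlx1/2 alleles were made, the sex of the embryos, the ChIP tissue's genotype and an ATAC-seq protocol are not given in the labels. Each list is 1 call over the embryos together, so no region has a value per embryo, no test over embryos could be made, and the read depth is unknown. Intervals on shares are 95% Wilson intervals that cover counting error over regions or genes only. Where a count of 0 is said to allow up to some share, that share is 3 counts over the total. It is not a Wilson bound.

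DLX1 and DLX2 are related homeodomain transcription factors that start the GABAergic programme of the ventral forebrain, in which progenitors leave the ventricular zone and become interneurons and striatal projection neurons. Homeodomain factors of this class bind short AT-rich sites, and DLX1 and DLX2 are known to activate Dlx5 and Dlx6 and to repress genes of progenitors and of other fates. Dlx6os1, also called Evf2, is a long noncoding RNA gene that runs across Dlx6 on the opposite strand. NuRD joins a chromatin remodelling enzyme to histone deacetylases and is associated with the closing of enhancers. In bulk accessibility data, fewer cells of a type with open chromatin and less open chromatin per cell cannot be told apart.

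Both promoter windows of Dlx6os1 in the RefSeq table for GRCm38.p6, the assembly of mm10, lay under WT-higher regions. They are shown because they were the 2 promoter windows of the table under WT-higher regions. Each line gives the 250 bases before a start site, 5′ to 3′ on the minus strand, with the homeodomain core TAATTA in capitals, at chr6:6861684-6861933 for the first and chr6:6869534-6869783 for the second.

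Dlx6os1, left window: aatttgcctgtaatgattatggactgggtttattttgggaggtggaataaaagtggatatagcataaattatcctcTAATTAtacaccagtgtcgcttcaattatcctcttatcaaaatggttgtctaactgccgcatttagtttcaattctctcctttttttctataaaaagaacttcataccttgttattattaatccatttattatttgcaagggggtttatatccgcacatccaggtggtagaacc

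Dlx6os1, right window: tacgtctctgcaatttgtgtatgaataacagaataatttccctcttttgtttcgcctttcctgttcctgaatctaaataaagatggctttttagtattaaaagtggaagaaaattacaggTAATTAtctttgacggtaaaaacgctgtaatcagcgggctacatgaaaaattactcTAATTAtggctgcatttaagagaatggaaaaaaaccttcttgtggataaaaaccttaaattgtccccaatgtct

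The first window held 1 copy of TAATTA and the second 2, a palindrome and so read alike on both strands. TAATTA was found in 4.84% of all 32851 promoter windows of this length. The first window was 34.0% G and C and the second 33.2%, against a median of 52.4% over all windows. The part of base composition in these matches was not tested. None of the other letter patterns searched was found in these windows, namely the E-box CAGCTG, the Sox core ACAATG and the AP-1 site TGANTCA, each on both strands. A match describes letters and not binding.

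KO-higher regions lay over 31 promoter windows of the table, from 30 genes, 24 of them curated protein-coding genes. The windows used do not cover every chromosome, as given in the processing section, so these promoter counts are not genome-wide. Of these 31 windows 2 held TAATTA (6.45%, against 4.84% of all windows), 4 held CAGCTG (12.9% against 13.0%), 2 held ACAATG (6.45% against 10.7%) and 0 held TGANTCA (6.75% of all). The 2 windows with TAATTA face each other at H2-T22 and Gm6034 and overlap. The windows given here are those of 3 transcription factor genes and of Pgk1, a glycolytic gene that returns in the comparison with FTpos cells. Capitals mark ACAATG, here read on the opposite strand as CATTGT, and a line without capitals held none of the 4 patterns.

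Otp, chr13:94875386-94875635, plus strand: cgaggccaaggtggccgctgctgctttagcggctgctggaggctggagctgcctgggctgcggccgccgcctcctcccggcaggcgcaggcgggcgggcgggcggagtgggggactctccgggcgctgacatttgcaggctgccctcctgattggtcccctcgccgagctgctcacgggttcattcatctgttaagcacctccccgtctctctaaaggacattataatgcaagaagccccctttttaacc

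Sp5, chr2:70474673-70474922, plus strand: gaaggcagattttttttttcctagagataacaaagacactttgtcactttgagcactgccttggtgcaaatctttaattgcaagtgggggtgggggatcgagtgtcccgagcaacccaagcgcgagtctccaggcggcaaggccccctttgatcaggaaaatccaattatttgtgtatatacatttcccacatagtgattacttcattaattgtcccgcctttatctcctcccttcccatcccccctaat

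Myt1, chr2:181763082-181763331, plus strand: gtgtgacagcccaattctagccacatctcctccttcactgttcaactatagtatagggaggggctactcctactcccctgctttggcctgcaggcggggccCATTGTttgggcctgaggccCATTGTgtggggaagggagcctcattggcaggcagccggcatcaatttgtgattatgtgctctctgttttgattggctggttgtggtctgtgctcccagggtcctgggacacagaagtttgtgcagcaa

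Pgk1, chrX:106186850-106187099, plus strand: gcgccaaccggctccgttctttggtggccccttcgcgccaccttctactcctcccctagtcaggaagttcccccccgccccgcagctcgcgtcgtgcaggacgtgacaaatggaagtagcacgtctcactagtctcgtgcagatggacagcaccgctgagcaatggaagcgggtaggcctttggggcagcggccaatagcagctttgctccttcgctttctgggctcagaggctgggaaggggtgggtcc

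Otp encodes a homeodomain factor of the hypothalamus, Sp5 a zinc finger factor induced by Wnt signalling and Myt1 a zinc finger factor of neuronal differentiation. Their regions had areas of 790, 613 and 624. The Myt1 window held 2 copies of the Sox core, and the Sp5 and Otp windows held none of the 4 patterns. The Sp5 window was 46.0% G and C and the Otp window 65.2%, against a median of 52.4% over all windows.

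The targeted locus was set aside. It held 5 WT-higher regions, whose areas ran from 3264 to 21511. Outside it, 727 of 775 regions were KO-higher (93.8%, 91.9 to 95.3) and 48 WT-higher. Areas were alike in the 2 lists, with a median of 704 and quartiles of 576 and 946 for KO-higher regions and a median of 667 and quartiles of 566 and 802 for WT-higher regions outside the locus. Median widths were 659 and 586 bp. The KO-higher list reached down to 500.1 at the region nearest to Plxna2 and 500.6 at that nearest to Egfl6. The WT-higher list reached down to 501.7 at the region nearest to Ctnnd2. Many calls thus lay just above the area minimum, and regions below it were not used here.

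**Figure D1:**
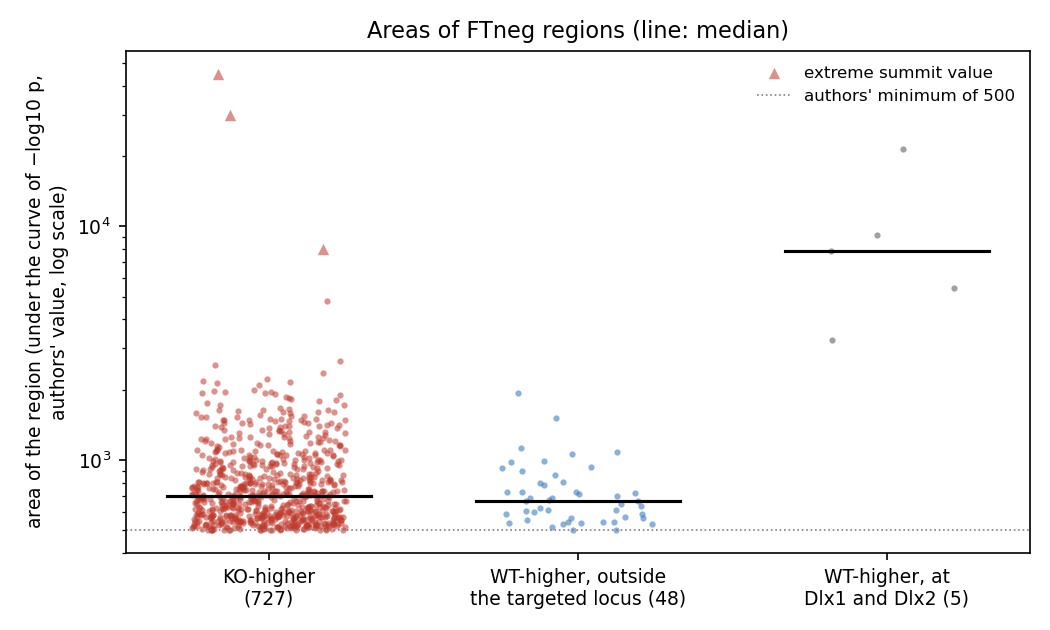
Area of each FTneg region on a log axis (authors' value), with 1 point per region, horizontal lines at the medians and a dotted line at the authors' minimum of 500. The 48 WT-higher regions outside the targeted locus cover the same lower range as the KO-higher regions, the 5 at Dlx1 and Dlx2 lie at 3264 and above, and triangles mark 3 KO-higher positions with extreme summit values.

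In 3 KO-higher positions the summit −log10 p was 36.8 (nearest to Esp38), 155 (Col19a1) and 55.8 (Lrrc4c), where the next highest of the list was 12.1 at Cwc22. Their areas were 45029, 30075 and 8026, and none carried a peak of any NuRD list. The same places were called in FTpos cells, at Col19a1 and Esp38 in both directions. Leaving them out changed none of the shares below beyond its interval.

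The largest group of WT-higher regions outside the targeted locus lay at another Dlx pair of the forebrain, and 39 of the 48 lay elsewhere. The other 9 were nearest to Dlx6, which encodes a homeodomain factor expressed after DLX1 and DLX2 in the same lineage. They stretched over 66.25 kb of chromosome 6 and covered 8.983 kb of it. From left to right they had areas of 894 and 985 at 56955 and 55748 bp before the start of Dlx6 (6863334), outside Dlx6os1, then 539, 596, 1127 and 1066 inside Dlx6os1 and before Dlx6. The next, within Dlx6 itself, was the largest and widest (area 1516, 2090 bp), and 2 more lay between Dlx6 and Dlx5 (areas 933 and 782). Of the 9 regions 6 lay wholly inside Dlx6os1 (6820543 to 6871627). No KO-higher region lay within 1 Mb of Dlx6.

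The 5 regions from 11985 bp before Dlx6 to the Dlx5 side each carried an RBBP4 peak, with fold enrichments of 4.92, 9.28, 3.51, 10.1 and 11.1, and the 4 farther left carried no NuRD peak. RBBP4 is a histone-binding subunit of NuRD and of other complexes. RBBP7 was at 0 of the 9. The region of the right Dlx6os1 window also carried peaks of MBD3 (fold 5.43) and of all 3 lists whose names disagree with their labels, and it was the one of the 9 that overlapped a WT-higher FTpos region (areas 933 in FTneg and 886 in FTpos).

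**Figure D2:**
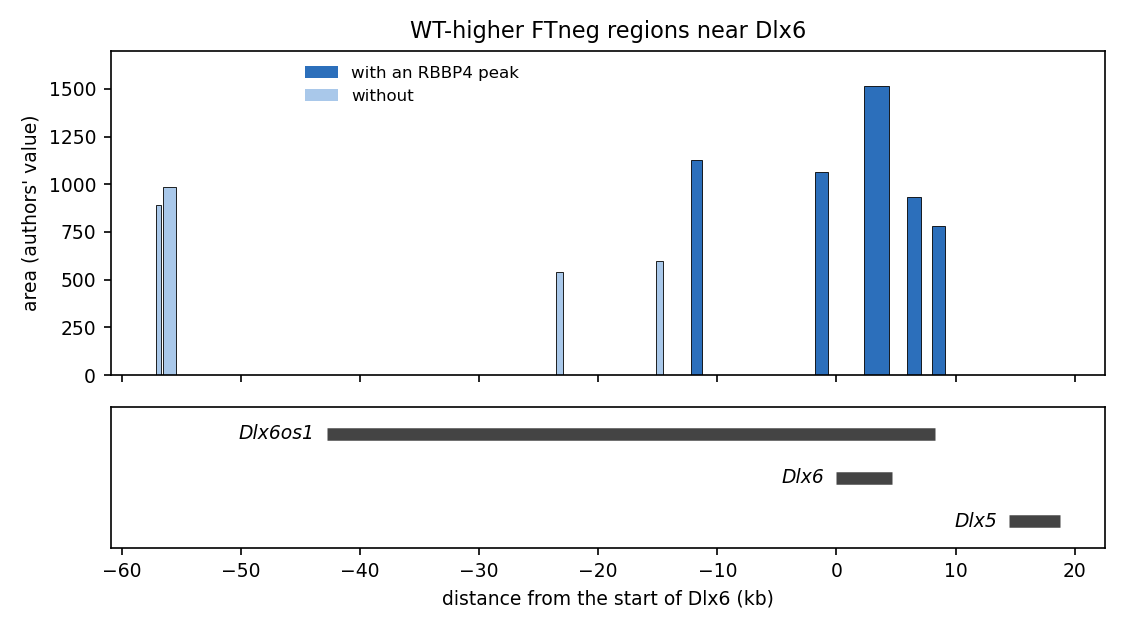
The 9 WT-higher FTneg regions near Dlx6 against the distance from the start of Dlx6 in kb, with bar height for the area (authors' value), bar width for the region's length, and gene bodies of Dlx6os1, Dlx6 and Dlx5 below. Dark bars carry an RBBP4 peak, and these are the 5 on the right.

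The second place with more than 1 WT-higher region within 100 kb was at Slc32a1, which encodes the vesicular GABA transporter that loads GABA into synaptic vesicles. One region ended 834 bp from the gene (chromosome 2, 158605262 to 158606426, area 921) and the other lay within Arhgap40 (158546717 to 158547094, area 646), 58167 bp away. Neither carried a NuRD peak. The Arhgap40 region overlapped a WT-higher FTpos region (area 864). None of the 8 genes of GABA synthesis and transport had a KO-higher region, a count of 0 that allows up to 37.5%.

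The remaining WT-higher regions were scattered. Outside both Dlx loci, and counting the pair just described, there were 39 regions nearest to 39 genes, 16 with the summit inside a gene and 23 outside, 12 of them beyond 100 kb, with areas of 502 to 1932. The largest was 145308 bp from Kcnn2, a calcium-activated potassium channel gene (chromosome 18, 45122904 to 45123930, area 1932), and had the 1 RBBP7 peak among the 48 regions (fold 5.28). Next came one within Zdhhc13 (chromosome 7, 48803339 to 48803937, area 1079) and one 403888 bp from Sox11, a Sox factor of newborn neurons (chromosome 12, 26930091 to 26930982, area 980). The Sox11 region was WT-higher in FTpos cells as well (area 840).

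Those inside genes were in Adamts20, a secreted protease gene (area 862), Spon1, which encodes an extracellular matrix protein (808), Agbl1 (801), Trpc7, a cation channel gene (729), Tenm4, a synaptic adhesion gene (698), Myo3b (672), Arhgap40, Impg1 (622), Mcph1, a microcephaly gene (611), Camkmt (609), Ndst3 (603), Tcerg1l (588), Jazf1 (584), Ttc29 (542) and Fsd2 (532). Those outside were nearest to St3gal1 (732), Myb (727), Veph1 (726), Ppp1cb (713), Tuba3b (688), Vstm2a (686), Insc (668), Castor2 (665), Gm597 (637), Kcnj3 (573), Nfia (567), Igf2bp1 (563), Ryr2 (553), Vwa5b1 (545), Gsdmc (542), Ptger4 (537), Mmut (533), Tafa2 (519), Srsf1 (503) and Ctnnd2 (502). Across all 21027 curated protein-coding genes 40 (0.190%) were nearest to a WT-higher region outside the locus. Of the 394 genes of the 22 lists used here 3 were, namely Dlx6, Slc32a1 and Tenm4.

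At 10 genes both lists had a region: Camkmt, Castor2, Impg1, Insc, Kcnn2, Myo3b, Nfia, Sox11, Tenm4 and Ttc29. The closest pair lay within Impg1, a WT-higher region of area 622 and a KO-higher region of area 1078 that were 10.418 kb apart. Within Myo3b the pair was 50.959 kb apart (672 and 1091), within Camkmt 75.878 kb (609 and 576) and within Ttc29 112.703 kb (542 and 586). Castor2 was nearest to 1 WT-higher region and to 3 KO-higher regions on both sides of it, at gaps of 208.483 to 274.829 kb. Sox11 had its pair 219.738 kb apart (980 WT-higher, 862 KO-higher).

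The KO-higher regions were spread over the genome, and most did not lie at a gene end. The share of the genome that lies at a gene end was not computed, so the shares below are descriptions. At a gene end, meaning within 1 kb of either end of a curated coding gene, lay 36 of 727 (4.95%, 3.598 to 6.78), and 3 of 48 WT-higher regions (6.25%, 2.15 to 16.8), these 3 at Dlx6 and Slc32a1. Inside a gene lay the summits of 334 (45.9%, 42.4 to 49.6) against 17 of 48 (35.4%, 23.4 to 49.6). Inside a long noncoding RNA gene but outside coding genes lay 74 (10.2%, 8.19 to 12.6) against 9 (18.8%, 10.2 to 31.9). These intervals overlap between the lists.

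Regions at gene ends included several of developmental regulators. Otp, Sp5 and Myt1 are given above. Ebf3, a factor of early neurons, had a region at each end (areas 1391 and 597) and 1 more inside (505). Barhl1, a homeobox gene of the dorsal midline and diencephalon, had 763, Sp9, a zinc finger factor of striatal neurons, 651, the Sox factors Sox1 and Sox21 531 and 666, and Zswim6 542. Signalling genes were Wnt8b (797), Nrarp (731), Epha7 (1078) and Ccn1 (834). Lin28a, an RNA-binding regulator of developmental timing, had 705.

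Other gene ends belonged to different classes of genes. The histone genes H3c7, H3c6 and H2bc7 with H2ac7 had regions of 752, 570 and 1631 within 30.671 kb of chromosome 13, and the MHC genes H2-Ab1 and H2-T22 had 572 and 684 on chromosome 17. Further regions were at Cwc22 (1403), Oacyl (1222), Pgk1 (951), Selenov (932), Uty (800), Eif2s3y (782), Abca1 (772), Nek5 (723), Zpld1 (707), Cdc26 (696), 2610042L04Rik (655), Mettl11b (615), Matn2 (604), Fancc (546), Gm5148 (517) and Ddx54 (510). Of the 27 KO-higher regions over a promoter window 18 carried a peak of a NuRD list, against 518 of all 727 KO-higher regions (71.3%).

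Of the 20 largest KO-higher regions without an extreme summit 8 carried all 6 NuRD lists, against 95 of all 727 KO-higher regions (13.1%). Without the extreme positions, regions with all 6 lists had a median width of 831 bp and those with 0 lists 576.5 bp. The part of width in this count was not tested. The largest of the 20, 219298 bp from Prkd1 (chromosome 12, 50120201 to 50122912, area 4771, 2712 bp wide), carried all 6 lists, with an RBBP7 fold of 21.1 and an RBBP4 fold of 13.9. All 6 were also at both regions within Auts2, a gene of neuronal development (areas 2215 and 2087), and at those within Hat1 (2139), Fbxl17 (1965) and Msi2, an RNA-binding protein gene of neural progenitors (1839). They were likewise at the regions nearest to Pdcd1 (450990 bp away, 1963) and Sox21 (2722 bp, 1949, RBBP7 fold 20.6). The regions near Samd5 (2147) and within Sgcz (1902) carried none, and the one near Tle1 (2168) carried RBBP4 alone (fold 5.13). The rest of the 20 largest were 1 within Ap3b1 (2655, 4 lists) and others outside genes. These were nearest to Cited2 (1281700 bp away, 2538, 3), Zfp324 (16160 bp, 2345, 3), Tmem229a (322470 bp, 1994, 5) and Asb4 (2960 bp, 1940, 3). The last were nearest to Zeb2 (1549720 bp, 1940, 5), Dct (11120 bp, 1911, 2), Cps1 (134917 bp, 1856, 2) and Kcna10 (32161 bp, 1815, 2).

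KO-higher regions mostly stood alone. Another KO-higher region lay within 100 kb for 131 of 727 (18.02%, 15.4 to 21.0), which formed 56 pairs, 5 groups of 3 and 1 group of 4, while 596 stood alone. The group of 4 was at Tcf12, which encodes an E-protein partner of proneural bHLH factors. All 4 lay inside the gene over 95.552 kb of chromosome 9 (71879453 to 71975004), with areas of 981, 575, 567 and 536, and the second covered an annotated promoter window inside the gene. Each carried at least 2 NuRD lists. The groups of 3 were at the histone genes named above, within Fam172a (604 to 1243), within Setbp1, a DNA-binding protein gene of neural development (903 to 1000), at Lrig1, a regulator of growth factor receptors (530 to 747), and within Pak3, a kinase gene of dendritic spines (581 to 1054).

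Counted over any distance, the 727 regions were nearest to 615 genes, 528 of them with 1 region, 66 with 2, 17 with 3 and 4 with 4. The 4 genes with 4 regions were Tcf12, Dcc, Ctnna2 and Zfp608. Dcc, the netrin receptor gene of axon guidance, had 2 regions inside (645 and 564) and 2 beyond it (1106 and 1365). All but 1 of these carried a peak of at least 1 NuRD list. Ctnna2, a catenin gene of neuronal adhesion, had 4 inside (935, 973, 558 and 1230), of which 1 carried such a peak. Zfp608 had 4 outside, 59486 to 647795 bp away, of which 3 carried such a peak. With 3 regions were Isl1, Ebf3, Tle1, Tenm2, Setbp1, Marcks, Cited2, Cdc73, Hs6st3, Tmem161b, Fam172a, Macrod2, Castor2, Pak3, Med10, Lrig1 and Lrrc4c.

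Over all curated genes 615 of 21027 (2.92%) were nearest to a KO-higher region. Of the 394 genes of the 22 lists 80 were (20.3%, 16.6 to 24.6), with 109 regions, which is 14.99% of the KO-higher list. Genes of the lists have more genome nearest to them (median 150 kb against 40 kb over all genes), so the lists are also given as regions per 10 Mb of that genome, against 2.69 over all genes. The lists were chosen with earlier results of these data known, and their shares describe where the regions lay.

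**Figure D3:**
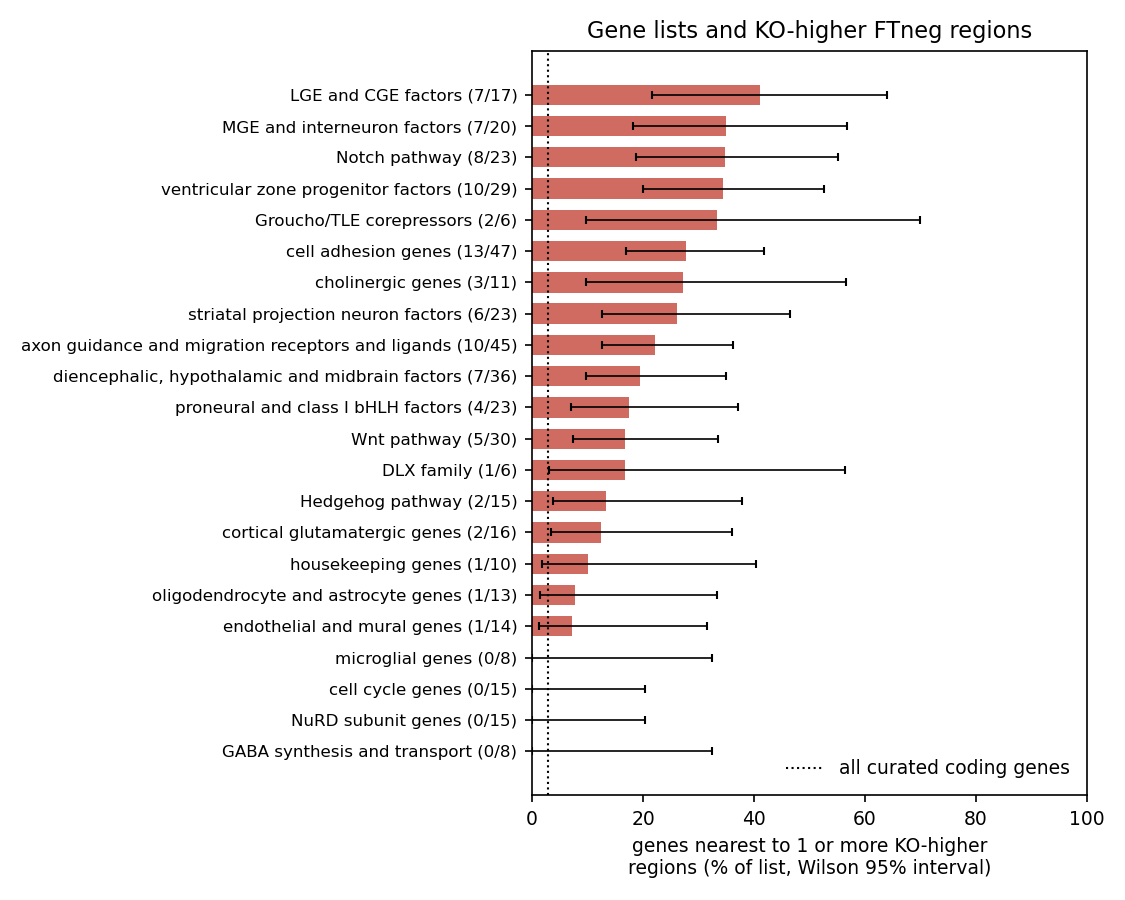
Share of each gene list nearest to 1 or more KO-higher FTneg regions, in percent with 95% Wilson intervals, and a dotted line at 2.92% for all curated coding genes. Lists of ganglionic eminence patterning, Notch and progenitor genes have the largest shares with nearest genes at any distance, and 4 lists have 0.

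Genes of ventricular zone progenitors, the cells from which the FTneg lineages arise, were nearest to 13 regions at 10 of 29 genes (34.5%, 19.9 to 52.7), or 15.4 per 10 Mb. Homeobox genes of regional progenitors were among them, Gsx2 (7577 bp away, area 751) and Gsx1 (32832 bp, 558), which both encode factors acting before DLX1 and DLX2, Nkx2-1 of the medial eminence (72263 bp, 563) and Pax6, which is highest in the neighbouring pallium (57593 bp, 520). Sox21, a Sox factor that counteracts other Sox factors in progenitors, had 2 regions at 2722 and 1216 bp (1949 and 666). Sox1 had 1 at 454 bp (531) and Sox9 1 at 584409 bp (732). Gli3, a transcription factor of Hedgehog signalling, had 2 inside (710 and 580), both with all 6 NuRD lists. Olig1, a bHLH gene of progenitors and oligodendrocytes, had 1 at 33436 bp (1423).

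The Notch pathway, by which neighbouring cells hold progenitors back from differentiation, had 9 regions at 8 of 23 genes (34.8%, 18.8 to 55.1), or 23.7 per 10 Mb. The ligand gene Dll1 had a region 2213 bp away (area 959), and Dner, for an atypical ligand, had 1 inside (850). Mfng, whose product modifies the receptors with sugars, had 1 inside (730). The nuclear partner Rbpj had 1 at 30017 bp (513) and the coactivators Maml2 and Maml3 1 inside each (1045 and 620). Among targets, the repressor Hes1 had 2 on opposite sides, 181855 and 61660 bp away (652 and 671), and the feedback inhibitor Nrarp had 1 at its end (731). The regions at Dner and Rbpj carried no NuRD list, and the other 7 did.

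Patterning factors of the lateral and caudal eminences had regions at 7 of 17 genes (41.2%, 21.6 to 64.0), with 7.09 regions per 10 Mb. Beside Gsx2 and Pax6 these were Sp9 (825 bp, 651), Sp8 (186581 bp, 801), Prox1 (213871 bp, 965), Nr2f2 (524590 bp, 1239) and Sall3 (556891 bp, 542). The last 4 lay beyond 100 kb, and with nearest genes admitted within 100 kb only the share was 17.6% against 2.28% of all genes, below the 34.8% of Notch, 33.3% of Groucho and 31.0% of progenitor genes under the same limit. Factors of the medial eminence and its interneurons had 8 regions at 7 of 20 genes (35.0%, 18.1 to 56.7), or 7.19 per 10 Mb, and 20% of them within 100 kb only. Sox6, of migrating interneurons, had 2 inside (567 and 522) and Lhx8, of cholinergic and other medial neurons, 1 at 55804 bp (735). Mef2c, Maf and Zeb2 had theirs at 213373, 346706 and 1549720 bp (656, 535 and 1940).

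Striatal projection neuron factors had 9 regions at 6 of 23 genes (26.1%, 12.55 to 46.5), or 7.96 per 10 Mb. Isl1, a LIM homeobox gene of direct pathway and cholinergic neurons, had 3, 1 on one side at 210424 bp (699) and 2 on the other at 188153 and 205445 bp (520 and 1054), each with 3 or more NuRD lists. Zfhx4 had 2 inside (596 and 693), Zfhx3 1 (1234) and Foxp2 1 (510), and Zswim6 had the promoter region given above. The DLX list itself had a KO-higher region at 1 of 6 genes (23.3 per 10 Mb), the one beyond Dlx2. Cholinergic genes had regions at 3 of 11 (16.6 per 10 Mb), Isl1, Lhx8 and Zic4 (67609 bp, 1350). The Groucho corepressors, which homeodomain and Hes factors recruit, had 5 regions at 2 of 6 genes (33.3%, 9.68 to 70.0; 17.4 per 10 Mb), 3 at Tle1 (1157, 828 and 2168) and 2 within Tle4 (885 and 560).

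Factors of diencephalon, hypothalamus and midbrain, regions outside the dissected tissue, had 9 regions at 7 of 36 genes (19.4%, 9.75 to 35.0), or 9.22 per 10 Mb. They were Otp, Ebf3 with 3, Barhl1, Foxd1 (2252 bp, 513), Ebf2 (119570 bp, 740), Irx1 (450462 bp, 788) and Tcf7l2 (inside, 572). Proneural and class I bHLH genes had 7 regions at 4 of 23 (17.9 per 10 Mb), 4 of them at Tcf12, with Tcf4 (366826 bp, 710), Id2, an inhibitor of bHLH factors (198141 bp, 1158), and Tal2 (8573 bp, 1334). Cortical glutamatergic genes had 2 of 16 (10.7 per 10 Mb), Eomes of intermediate progenitors (158830 bp, 862) and Slc17a6, the vesicular glutamate transporter gene (3587 bp, 529). Within 100 kb only, the bHLH share was 8.70% in place of 17.4% and the cortical glutamatergic share 6.25% (1 of 16).

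Among signalling pathways beside Notch, Wnt genes had 5 of 30 (10.6 regions per 10 Mb), at the feedback inhibitor Axin2 (inside, 684), the ligands Wnt7b (71318 bp, 852) and Wnt8b (797), the receptor Fzd9 (2726 bp, 546) and the effector Tcf7l2. Hedgehog genes had 2 of 15 (8.75 per 10 Mb), Gli3 and the coreceptor gene Gas1 (3254 bp, 580). Axon guidance genes had 15 regions at 10 of 45 (22.2%, 12.54 to 36.3), or 4.14 per 10 Mb. Beside Dcc these were Nrp1, a semaphorin receptor gene (inside, 1600), the ephrin ligand gene Efna5 (inside, 1484) and the repellent ligand gene Slit2 (inside, 1203) with its receptor gene Robo1 (inside, 847). Receptors for ephrins were Epha7 (1078 at its end and 577 inside), Epha3 (695 inside and 592 at 205173 bp) and Epha4 (875780 bp, 747). Sema3c had 519 inside and Plxna2 500.1 at 458467 bp. Within 100 kb only, the axon guidance share was 17.8% (8 of 45) against 2.28% of all genes.

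Cell adhesion genes had the most regions of any list, 22 at 13 of 47 genes (27.7%, 16.9 to 41.8). They also have the most genome nearest to them, a median of 1940 kb, and per 10 Mb their 2.52 regions were below the 2.69 over all genes. Within 100 kb only the share was 14.9%. They were Ctnna2, the teneurins Tenm2 with 3 inside (529 to 1597), Tenm1 (836) and Tenm4 (542), the cadherins Cdh6 (1319 and 577), Cdh7 (779), Cdh8 (1096 and 548) and Cdh12 (507), the protocadherins Pcdh9 (651 and 567) and Pcdh17 (809), Adgrl2 (741 and 1401), Negr1 (801) and Ntm (612).

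Among markers of other cell types, the cortical glutamatergic genes given above had 2 regions at 2 of 16 genes. The remaining lists of other cell types and of general cell functions had 0 or 1 region each, on short lists. Oligodendrocyte and astrocyte genes had 1 of 13 (Olig1), endothelial and mural genes 1 of 14 (Tek, inside, 585) and housekeeping genes 1 of 10 (Pgk1). These shares of 7.69%, 7.14% and 10.0% were above the 2.92% of all genes, at 7.09, 3.58 and 25 regions per 10 Mb. The housekeeping share rests on the Pgk1 region alone, which cannot be told apart from Pgk1 promoter sequence that a targeted allele may carry, and it was 0 with X and Y left out. Microglial genes had 0 of 8, cell cycle genes 0 of 15 and NuRD subunit genes 0 of 15, counts that allow up to 37.5%, 20% and 20%. The lists hold only regions that were called, so they do not show which cell types were in the fraction. The tissue label could therefore not be checked against marker levels.

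Regions nearest to list genes did not stand out in area from the other KO-higher regions, with medians of 730 and 702. A peak of a NuRD list was at 78.9% (70.3 to 85.5) of the 109 and at 69.9% (66.2 to 73.4) of the other 618, and 3 or more lists at 49.5% (40.3 to 58.8) and 40.3% (36.5 to 44.2). These intervals overlap.

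Of the 6 subunits, RBBP7, a histone-binding protein closely related to RBBP4, had the largest gap between the 2 directions. An RBBP7 peak was at 315 of 727 KO-higher regions (43.3%, 39.8 to 47.0) and at 1 of 48 WT-higher regions outside the targeted locus (2.08%, 0.369 to 10.9), and these intervals do not overlap. At the targeted locus 2 of the 5 regions had one, so over all 53 WT-higher regions the share was 5.66%. Where RBBP7 was present at KO-higher regions its median fold was 7.57, against 6.20 over all 14918 peaks of its list. RBBP4 was as frequent in both directions, at 66.0% (62.5 to 69.4) and 68.8% (54.7 to 80.1). MBD3, which holds the complex together, was at 36.2% (32.8 to 39.7) and 20.8% (11.7 to 34.3).

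For 3 samples the attached list carries the name of another subunit, HDAC1 on the CHD4 sample, HDAC2 on HDAC1 and CHD4 on HDAC2, and the lists are named here by the sample. The CHD4-labelled list was at 39.2% (35.7 to 42.8) of KO-higher and 27.1% (16.6 to 41.0) of WT-higher regions, the HDAC1-labelled list at 22.4% and 18.8%, and the HDAC2-labelled list at 25.9% and 18.8%. All 6 lists were on 95 KO-higher regions (13.1%, 10.8 to 15.7) and on 0 of 48 WT-higher regions, which allows up to 6.25%. Each list comes from 1 ChIP library, from embryos a day older than those of the accessibility data, and no test across libraries could be made.

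**Figure D4:**
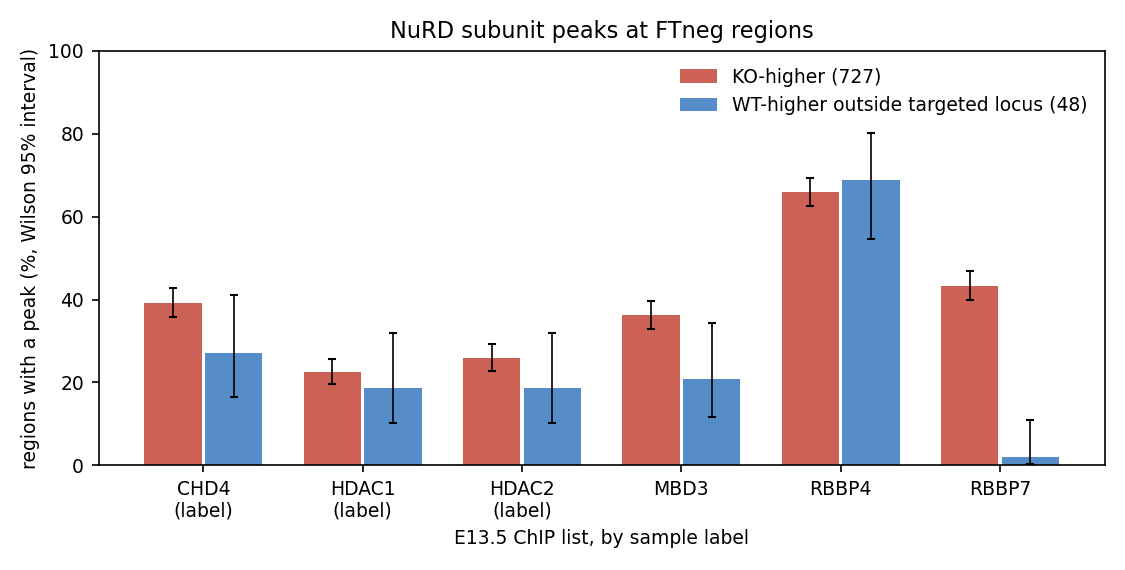
Share of FTneg regions with a peak of each ChIP list, in percent with 95% Wilson intervals, for 727 KO-higher regions and 48 WT-higher regions outside the targeted locus. RBBP4 bars are of like height and the RBBP7 bar is at 43.3% for KO-higher and 2.08% for WT-higher regions.

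Larger KO-higher regions more often carried a peak of at least 1 NuRD list. In 4 equal groups by area, without the 3 extreme positions, the share with any list was 63.0% (55.7 to 69.7), 71.3%, 72.9% and 79.0% (72.5 to 84.3) from lowest to highest, and that with RBBP7 36.5%, 38.7%, 48.6% and 50.3%. Median widths of the same groups were 564, 612, 669 and 868 bp, and a wider region has more room for a peak. The part of width in this order was not tested.

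KO-higher regions were dense around the targeted genes. Within 5 Mb of Dlx1 and Dlx2 lay 11 KO-higher regions and 1 WT-higher region, a density of 10.98 KO-higher regions per 10 Mb against 3.02 on the rest of chromosome 2. Of 255 windows of 10 Mb over the autosomes and X, which had a median of 2 KO-higher regions, 2 had 11 or more. One of these, with 12, holds the targeted locus itself, and the other, with 11, is on chromosome 13. Nearest to the locus were 1 region 32.15 kb beyond Dlx2 (71578904 to 71580023, area 1099), with no NuRD list, and 2 within Hat1, a histone acetyltransferase gene, 106.751 and 108.704 kb away on the other side (751 and 2139). Farther out were regions at Cdca7 (649), Sp5 (613), Myo3b (1091), Ola1 (1253 and 942), Sp9 (651), Stk39 (917) and Gm1322 (633). Sp5 and Sp9, named above among the promoters and patterning factors, thus lie on the chromosome that carries the targeted alleles, 1052.47 and 1729.333 kb from the locus. The part of linkage to the targeted alleles in these calls was not tested. With all regions within 5 Mb left out the KO-higher share was 93.8%.

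**Figure D5:**
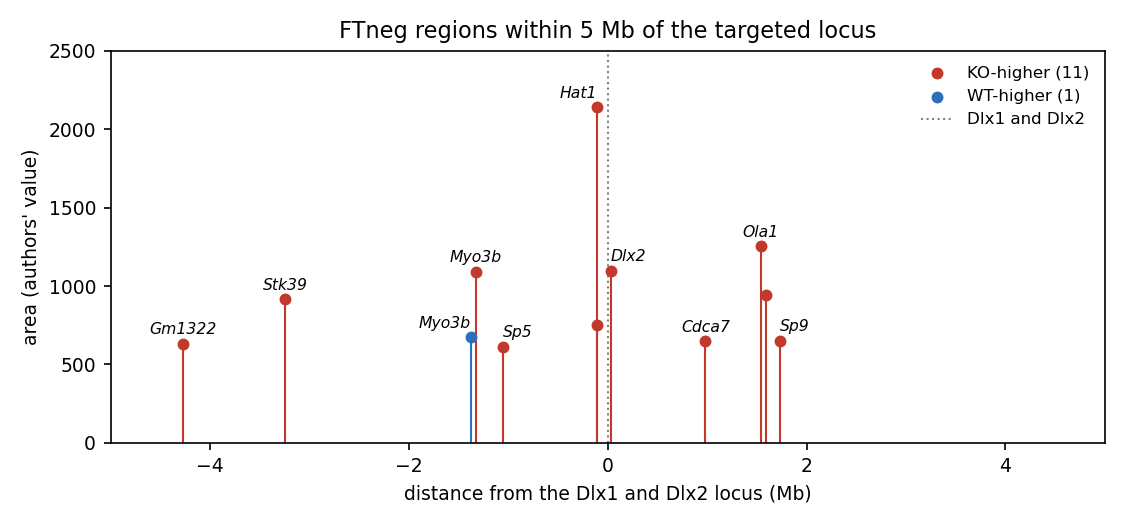
FTneg regions within 5 Mb of the targeted locus by distance in Mb (negative before Dlx1, positive beyond Dlx2) and area (authors' value), with the nearest gene named at the largest region of each. Of the 12 regions 11 are KO-higher, and those at Hat1 and beyond Dlx2 are nearest to the locus.

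Across chromosomes the KO-higher regions ran from 1.83 per 10 Mb on chromosome 15 to 5.29 on chromosome 13 among the autosomes, with 2.90 over all autosomes. Chromosome 13, with 62 regions, carries among others the groups at the histone genes and Fam172a and the regions at Gli3, Otp, Zswim6 and Isl1. The X chromosome had 15 regions (0.879 per 10 Mb), among them Pgk1, Pak3 and Tenm1, and the Y chromosome 3, over promoter windows of Eif2s3y (area 782) and Uty (800) and near Kdm5d (704). These are Y genes expressed in male cells. No WT-higher region lay on X or Y. The number of male embryos in each group is not given, and its part in the calls on X and Y was not tested. Leaving out X and Y changed none of the main shares beyond its interval.

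The lists for FTpos cells of the ventricular zone were short, with 12 KO-higher and 33 WT-higher regions. Their length bounds the share of FTneg regions that could overlap them. Of 727 KO-higher FTneg regions 10 overlapped a KO-higher FTpos region (1.38%), and of the 12 KO-higher FTpos regions 11 overlapped one in FTneg (91.7%). Beside the 3 positions with extreme summits, these were at Pgk1 (areas 951 in FTneg and 827 in FTpos), at H2bc7 (1631, with 2242 and 596), beyond Dlx2 (1099 and 3504), within the agouti gene a (1000 and 1327) and Cobl (670 and 829), and near Lnx1 (1164 and 523) and Zfp324 (2345 and 751). The Pgk1 region ran from 405 bases before the annotated start to 172 bases into the gene, over the window printed above, and carried a peak of the CHD4-labelled list only. Promoter sequence of Pgk1 is also used in gene targeting cassettes. Whether the Dlx1/2 alleles carry any is not given in the labels, so reads from the endogenous gene and from such a copy cannot be told apart, and its part in this call was not tested. None of these 10 regions was nearest to a gene of the Notch, progenitor or eminence lists, and the region beyond Dlx2 counts in the DLX list. Among all 727 KO-higher regions the Notch list had 9 and the progenitor list 13. The lateral and caudal eminence list had 7 and the medial eminence list 8, some of them shared between lists. With so few regions of these lists, a count of 0 among 10 says little.

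In the other direction 8 of the 53 WT-higher FTneg regions overlapped a WT-higher FTpos region (15.1%, and 24.2% of the 33 in FTpos), 5 at the targeted locus and those near Sox11, within Arhgap40 and at the right Dlx6os1 window. At Cwc22, a splicing factor gene, the promoter was KO-higher in FTneg (area 1403) and WT-higher in FTpos (1664), the 1 opposite call outside the extreme positions. The fractions share embryo numbers and each list was called on its own, so a region found in 1 fraction is not shown to differ from the other.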

How the data were processed

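The build was mm10 and the tools were deepTools, Genrich, MACS2 2.2.7.1, SAMtools 1.10 and BWA, per the submitters' processing notes, with settings not given in the sources used here. The authors deposited 1 list per fraction and direction for the 3 embryos of a genotype, in which a region's score is its area (that below its −log10 p track). The deposited −log10 p at the summit and, for ChIP peaks, the fold enrichment (a ratio) and its −log10 q are also the authors' values, used only to describe or filter regions within a list.

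Computed here, with Python 3.11.15, pandas 2.3.3 and scipy 1.17.1, were nearest genes, overlaps of at least 1 bp and Wilson intervals. The interval and overlap code was tested on simulated data. Summits were assigned to the nearest of 21027 curated protein-coding genes of the RefSeq table for GRCm38.p6, on chromosomes 1 to 19, X and Y, at any distance. That table gives ends but not exons. A planned motif search in the regions needed a genome of this build and was not run, and promoter windows were used in its place. The promoter windows included 0 on chromosome 18. The 33 KO-higher regions and 1 WT-higher region there could therefore not be counted over a promoter window.

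The regions, gene lists and alternatives were chosen with earlier results of these data known. The text names the 20 KO-higher regions of largest area without an extreme summit (−log10 p above 30), all WT-higher regions, genes with 3 or more regions, list genes nearest to a region, and regions at a gene end, within 5 Mb of Dlx1 and Dlx2 or overlapping an FTpos region. Genes with promoters shown as sequence were picked after their values were seen. The result of 1 list gene is not reported here.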

Additional observations from a re-analysis of the deposited data

How the results depend on the processing

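Of 26 recomputed main shares 16 stayed within the 95% interval of the reported value and 10 moved beyond it. With an area of at least 1000 the KO-higher share outside the locus was 96.8%, the share at a gene end 3.29% for KO-higher and 40.0% for WT-higher regions (2 of 5), the share with another KO-higher region within 100 kb 3.95%, the overlap with FTpos 3.95%, and 0.675% of all genes were nearest to a KO-higher region. With a gene end of 5 kb 12.2% of KO-higher regions lay at one, and with all genes of the annotation 9.22%. A distance of 20 kb between regions gave 9.90%, and nearest genes within 100 kb only gave 2.28% of all genes. A wider gene end or gene set can only raise the gene-end share, and a shorter distance can only lower the shares that use it. With fewer regions left at an area of at least 1000, the share of all genes can likewise only fall. The cause of the other moves at that area was not tested. Of 124 recomputed shares of single gene lists and ChIP lists 26 moved, 23 of them at an area of at least 1000, where 152 KO-higher and 5 WT-higher regions were left. Leaving out X and Y was added after the data were seen.

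No paired analysis was possible because each list combines the embryos of a genotype, and no embryo was left out for the same reason. Read depth is unknown. Nearest genes are not targets, regions below the area minimum were not used here, and gene list shares depend on how much genome lies nearest to each gene.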

Other observations

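Gene families defined by symbol varied in the share nearest to a KO-higher region, beside 2.92% of all genes. Sox genes had 8 of 19 (42.1%, 23.1 to 63.7), with Sox4, Sox5, Sox11 and Sox13 in addition to those of the lists. Zfhx and Zeb genes had 3 of 5, Ebf genes 2 of 4, Irx genes 2 of 6 and Pax genes 2 of 9. Forkhead genes had 4 of 44 (9.09%), potassium channel genes 8 of 94 (8.51%) and Zfp genes 6 of 395 (1.52%). Per 10 Mb of the genome nearest to them, Sox genes had 15.01 KO-higher regions, forkhead genes 4.67, potassium channel genes 3.12 and Zfp genes 2.52. By the same measure Ebf genes had 26.3, Pax genes 10.5, Zfhx and Zeb genes 8.37 and Irx genes 6.87. Cadherin genes had 7 of 23 (30.4%) but 3.125 regions per 10 Mb. Nr2 genes had 3.04 per 10 Mb and Meis, Pbx and Pknox genes 2.87. Olfactory receptor genes had 1 of 1108 (0.0903%), or 0.291 KO-higher regions per 10 Mb of the genome nearest to them, against 2.69 over all genes.

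Of 1005 miRNA hairpins of RefSeq (GRCm38.p6), 4 lay within 5 kb of a KO-higher region and 0 near a WT-higher region. The share of the genome within 5 kb of a region was not computed, so these counts only describe positions. Mir135a-1 was 1.398 kb from a region of area 511 and Mir135b 2.508 kb from one of area 996. Mir770 was 2.961 kb from one of area 1050, and Mir6962 1.714 kb from one of area 638. The mature miR-135a-5p of the first hairpin is given with its seed, bases 2 to 8, in capitals.

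mmu-miR-135a-5p: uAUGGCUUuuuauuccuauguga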
